A study of Homo sapiens with 4 samples.

Results

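The difference between 2 gastric cancer cell lines, AGS and HGC-27, was described across all genes with a mean of at least 10 counts over 4 RNA-seq libraries. This rule kept 17601 of the 58336 genes in the deposited count table. AGS is an established line from a gastric adenocarcinoma, and HGC-27 is an established line from an undifferentiated gastric carcinoma. The study had 4 libraries of total RNA extracted with TRIzol: AGS control, AGS after 1 day in 10 nM estradiol, HGC-27 control, and HGC-27 after the same estradiol treatment. All 4 are labelled wild type, and no other agent or allele is named. The comparison set the 2 AGS libraries against the 2 HGC-27 libraries, with treatment as a block.

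Each line is thus represented by 1 control and 1 estradiol library, and nothing in the labels says that they came from independent cultures, so the p-values measure only the spread between these libraries. A difference between the lines is a difference between these cultures of AGS and HGC-27 and cannot be separated from their passage or culture. Just inside the limit were PILRA, CDH23 and FAM20A, at a mean of 10.0 counts. Just outside were GPR179, AC006449.5 and AL136985.3, at a mean of 9.75.

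Epithelial cells hold together through cadherins, claudins and desmosomes, and their cytoskeleton is built on keratins. A set of repressors that includes ZEB1, ZEB2, SNAI2 and TWIST1 can switch these genes off and turn on vimentin and matrix genes, a change known as epithelial-mesenchymal transition (EMT). Gastric carcinomas of the diffuse or undifferentiated kind often lack epithelial adhesion, and others keep glandular and intestinal features under transcription factors such as HNF4A and CDX2.

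Library totals were 24597379 to 28734374 counts, and mitochondrially encoded genes took 7.82% to 7.94% of the counts. Between 15626 and 15828 genes had at least 10 counts in the AGS libraries, and 17234 to 17460 had as many in the HGC-27 libraries. Libraries of the same line correlated at a Pearson r of 0.9974 in AGS and 0.9973 in HGC-27 across the tested genes, whereas those of unlike lines correlated at 0.7632 to 0.7677. These are correlations across genes, which are not independent replicates.

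Most tested genes differed between the lines. By edgeR's quasi-likelihood test with Benjamini-Hochberg adjustment at 0.05, 13488 of 17601 genes were called (76.6%). Of these, 6326 (35.9% of those tested) were higher in AGS and 7162 (40.7%) were higher in HGC-27. A test against a 2-fold difference (glmTreat) kept 6281 genes (35.7%), of which 2637 (15.0%) were higher in AGS and 3644 (20.7%) in HGC-27. All 6281 had the same sign in the control pair of libraries as in the estradiol pair, and 13485 of the 13488 calls did.

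The size of the line difference was far above that of the treatment within a line. Among 9867 genes with a mean of at least 100 counts in each line, the median absolute log2 difference between lines was 0.535. The median absolute log2 ratio of estradiol to control library was 0.072 in AGS and 0.067 in HGC-27. Between the lines, 2374 of these genes (24.06%) were over 2-fold apart, against 4 with estradiol in AGS and 5 in HGC-27. Another 3193 (32.36%) lay within 1.25-fold between the lines.

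**Figure D1:**
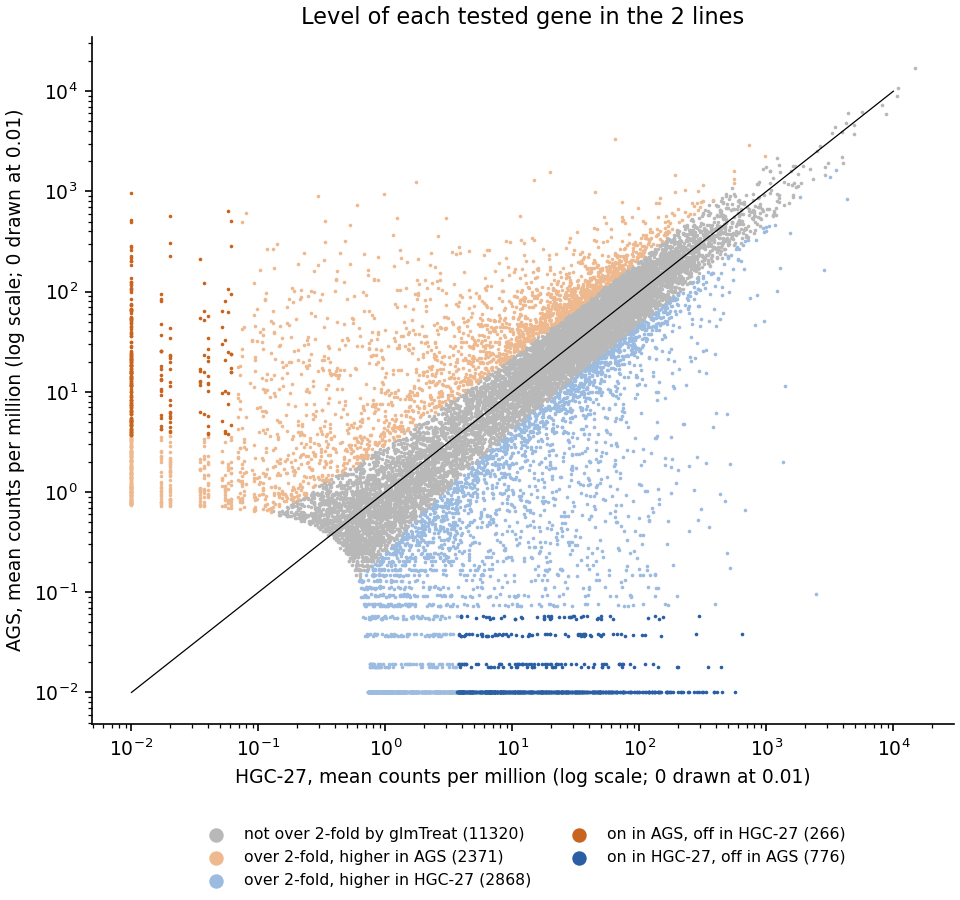
Mean CPM (counts scaled to library size) of each tested gene in HGC-27 (horizontal, log scale) and AGS (vertical, log scale), 1 point a gene, with 0 drawn at 0.01 and equal levels on the line. The 266 genes on in AGS and off in HGC-27 stand at the left edge and the 776 of the opposite kind along the bottom.

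Some genes were present in 1 line and close to absent in the other. A gene was counted as on where its mean was at least 100 counts over the 2 libraries of a line, and as off where those of the other line held at most 3 counts together. By this description 266 genes (1.51%) were on in AGS and off in HGC-27, and 776 (4.41%) were on in HGC-27 and off in AGS, 2.92 times as many. The ratio lay between 2.48 and 3.43 when the on limit was 50, 100 or 500 counts and the off limit 0, 3 or 10. Of the 776 genes, 579 had 0 counts in the AGS libraries, and of the 266, 169 had 0 in HGC-27. A count of 0 bounds a level and does not show absence, so folds against it are given as at least the ratio to 3 counts over the line's 2 libraries.

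The largest differences in favour of HGC-27 included genes of the extracellular matrix. Counts are given here and below for the control and then the estradiol library of a line. POSTN, encoding the matrix protein periostin, had 15970 and 14469 counts in HGC-27 against 0 and 0 in AGS, at least 10099.7-fold higher. SPARC, a collagen-binding glycoprotein, had 11195 and 9749 counts against 0 and 0. The cadherin CDH6 had 11809 and 10388 against 0 and 0. The 12 largest had no count in either AGS library, and the others among them were TRPS1, COL11A1, QKI, BGN, EFHD1, CDKN2A, EPB41L3, TEX15 and ADD2.

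The largest differences in favour of AGS included secretory and surface genes of epithelium. CTSE, encoding the gastric aspartic protease cathepsin E, had 25666 and 26439 counts in the AGS libraries and 0 and 0 in those of HGC-27, at least 17448.5-fold higher. The apical trafficking protein gene MAL2 had 12981 and 13573 counts against 0 and 0. The long noncoding RNA UCA1 had 5541 and 6665 against 0 and 0. These 3 and GATM, FOXQ1, INAVA, CEACAM6, KIAA0040, LAD1, TSPAN8, CDCP1 and SULT1C4 made up the 12 largest in that direction, with no count in either HGC-27 library.

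**Figure D2:**
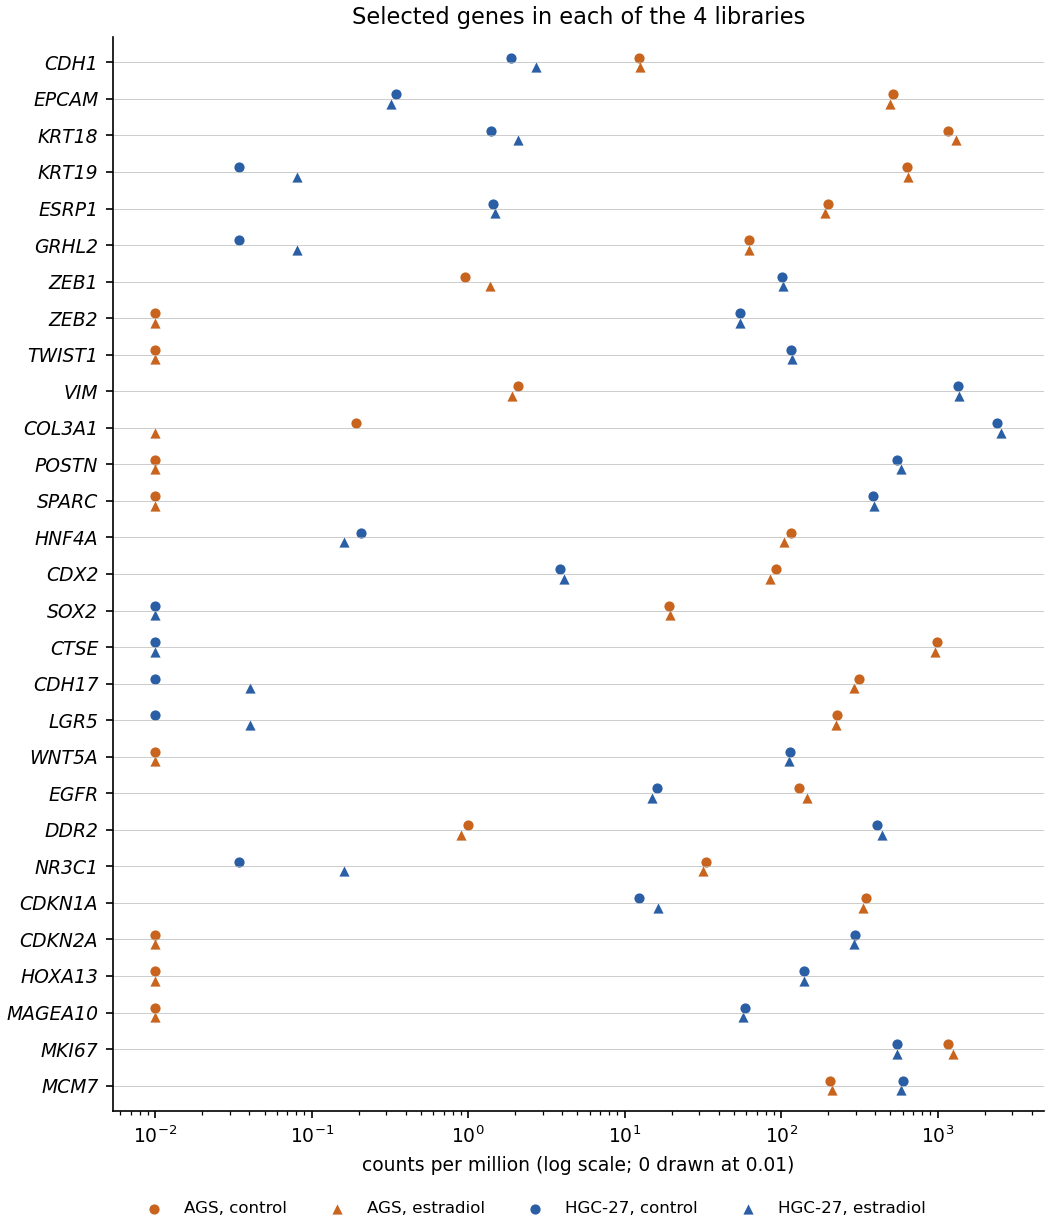
CPM (horizontal, log scale, 0 drawn at 0.01) of selected genes in each library, with circles for control, triangles for estradiol, orange for AGS and blue for HGC-27. For every gene drawn the 2 libraries of a line lie on the same side of both libraries of the other line. The genes were chosen with earlier results of these data known, so this separation follows largely from the choice.

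Protein-coding and noncoding genes were both affected. Of 13609 protein-coding genes tested, 2191 were over 2-fold higher in AGS and 2692 in HGC-27. Of 2448 long noncoding genes, 318 were over 2-fold higher in AGS and 657 in HGC-27, and their median log2 difference was -0.53, against -0.09 over all tested genes. No source used here gives the strand setting of the counting, and reads of antisense genes cannot be told from those of their partners.

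The pathways and cell states are given as counts from a set of 39 gene lists, of which 1 is not reported. In all, 1183 listed genes were in the table. Of their distinct members 965 passed the count limit, 877 of these were called and 573 were over 2-fold apart. The counts of a list are read against the 35.9% and 40.7% of all tested genes called higher in AGS and in HGC-27. Those over 2-fold are read against 35.7% of all tested genes. No test of a list as a whole was made.

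Epithelial junction genes were higher in AGS. Of 35 tested genes of epithelial adhesion, 32 were called higher in AGS and 2 in HGC-27, with a median log2 difference of 6.45. EPCAM, an adhesion molecule of epithelial cells, had 13601 and 13659 counts in the AGS pair against 10 and 8 in the HGC-27 pair, a log2 difference of 10.56 ± 0.11 (SE, n = 2 libraries a line, edgeR adjusted p = 9.0e-29). The SE here and below is the absolute log2 difference over the square root of the test's F statistic. It can be too small where a line holds few counts, as HGC-27 does for EPCAM. CDH1, encoding E-cadherin of the adherens junction, had 320 and 348 counts in the AGS libraries and 55 and 68 in those of HGC-27, a 5.43-fold difference (log2 2.44 ± 0.20). The libraries of the lines did not overlap for either gene. With 2 libraries a line and 76.6% of all tested genes called, that adds little. CLDN4, a tight junction claudin, had 6345 and 6667 counts against 68 and 55, and the desmosome gene DSP had 33599 and 35776 against 404 and 392. The exceptions were P-cadherin, CDH3, with 6 and 9 counts in the AGS pair against 85 and 88 in the HGC-27 pair, and CLDN18, with 10 and 4 against 35 and 38. PATJ was the member not called.

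Keratins followed the same division. Of 12 tested, 11 were called higher in AGS and 1, KRT4, was higher in HGC-27. KRT18, a keratin of simple epithelia, had 30519 and 36166 counts in the AGS libraries and 41 and 52 in those of HGC-27, a 714-fold difference. Its partner KRT8 had 83122 and 95025 counts against 1825 and 1649, and KRT19 had 16603 and 17846 against 1 and 2. Of these 3 keratins KRT8 had the most counts left in HGC-27.

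The regulators of the 2 states differed in opposite directions. Of 14 tested epithelial regulators, 13 were called higher in AGS. GRHL2, a factor that maintains junction genes, had 1625 and 1727 counts in the AGS pair against 1 and 2 in the HGC-27 pair. ESRP1, which directs epithelial splicing, had 5214 and 5290 against 42 and 37, a 133.4-fold difference. TFAP2A was the exception, with 370 and 410 counts in the AGS libraries and 1079 and 909 in those of HGC-27.

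Of 12 tested EMT regulators, 10 were called higher in HGC-27, with a median log2 difference of -7.62. ZEB1 had 25 and 38 counts in the AGS pair against 2954 and 2574 in the HGC-27 pair, an 87.2-fold difference (log2 -6.45 ± 0.12, edgeR adjusted p = 3.2e-24). ZEB2 had 0 and 0 against 1577 and 1366, and TWIST1 had 0 and 0 against 3384 and 2926. The RNA-binding protein gene QKI had 0 and 0 against 9724 and 8316. FOXC1 went the other way, with 8215 and 8515 counts in the AGS libraries and 292 and 227 in those of HGC-27, as did SNAI3.

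Mesenchymal cytoskeleton and matrix genes were mostly higher in HGC-27. VIM, the intermediate filament protein of mesenchymal cells, had 54 and 53 counts in the AGS pair against 39235 and 34138 in the HGC-27 pair, a 681-fold difference. Of 24 tested genes of that list, 19 were called higher in HGC-27 and 4 in AGS. The 4 were CDH11, TAGLN, MYL9 and MSN. CDH11, a cadherin of mesenchyme, had 248 and 232 counts in the AGS libraries and 0 and 0 in those of HGC-27. The mesenchymal list was thus not uniform.

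Collagens went both ways. Of 18 tested, 12 were called higher in HGC-27 and 6 in AGS. The fibrillar collagen COL3A1 had 5 and 0 counts in the AGS pair against 69721 and 63740 in the HGC-27 pair, and COL1A1 had 317 and 289 against 40002 and 35403. The 6 higher in AGS included the basement membrane chains COL4A1, COL4A2 and COL4A5 and the hemidesmosome collagen COL17A1, which had 824 and 953 counts in the AGS libraries and 4 and 1 in those of HGC-27. Enzymes and proteins that build the matrix were called higher in HGC-27 in 16 of 22 cases and in AGS in 4. The proteoglycans LUM and DCN had 5122 and 4728, and 3842 and 3812 counts in HGC-27, with 0 in each AGS library.

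Receptors for the matrix were divided. Of 25 tested integrins and laminins, 14 were called higher in AGS and 6 in HGC-27. The laminin chain genes LAMA3 and LAMB3, of the anchoring laminin of epithelia, were higher in AGS: LAMA3 had 9966 and 11410 counts against 880 and 864, and LAMB3 had 7893 and 8743 against 9 and 9. The integrin chain gene ITGB4, whose product binds that laminin, had 8916 and 10715 counts against 39 and 24. ITGA4 had 0 and 0 counts in the AGS pair against 1691 and 1566 in the HGC-27 pair, and LAMA1 had 10 and 10 against 3104 and 2692. Of 30 tested matrix proteases and inhibitors, 16 were called higher in AGS and 12 in HGC-27. The collagenase gene MMP1 had 13006 and 14094 counts in the AGS libraries and 0 and 3 in those of HGC-27. MMP2, the gelatinase, had 3 and 3 in AGS and 1443 and 1428 in HGC-27.

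**Figure D3:**
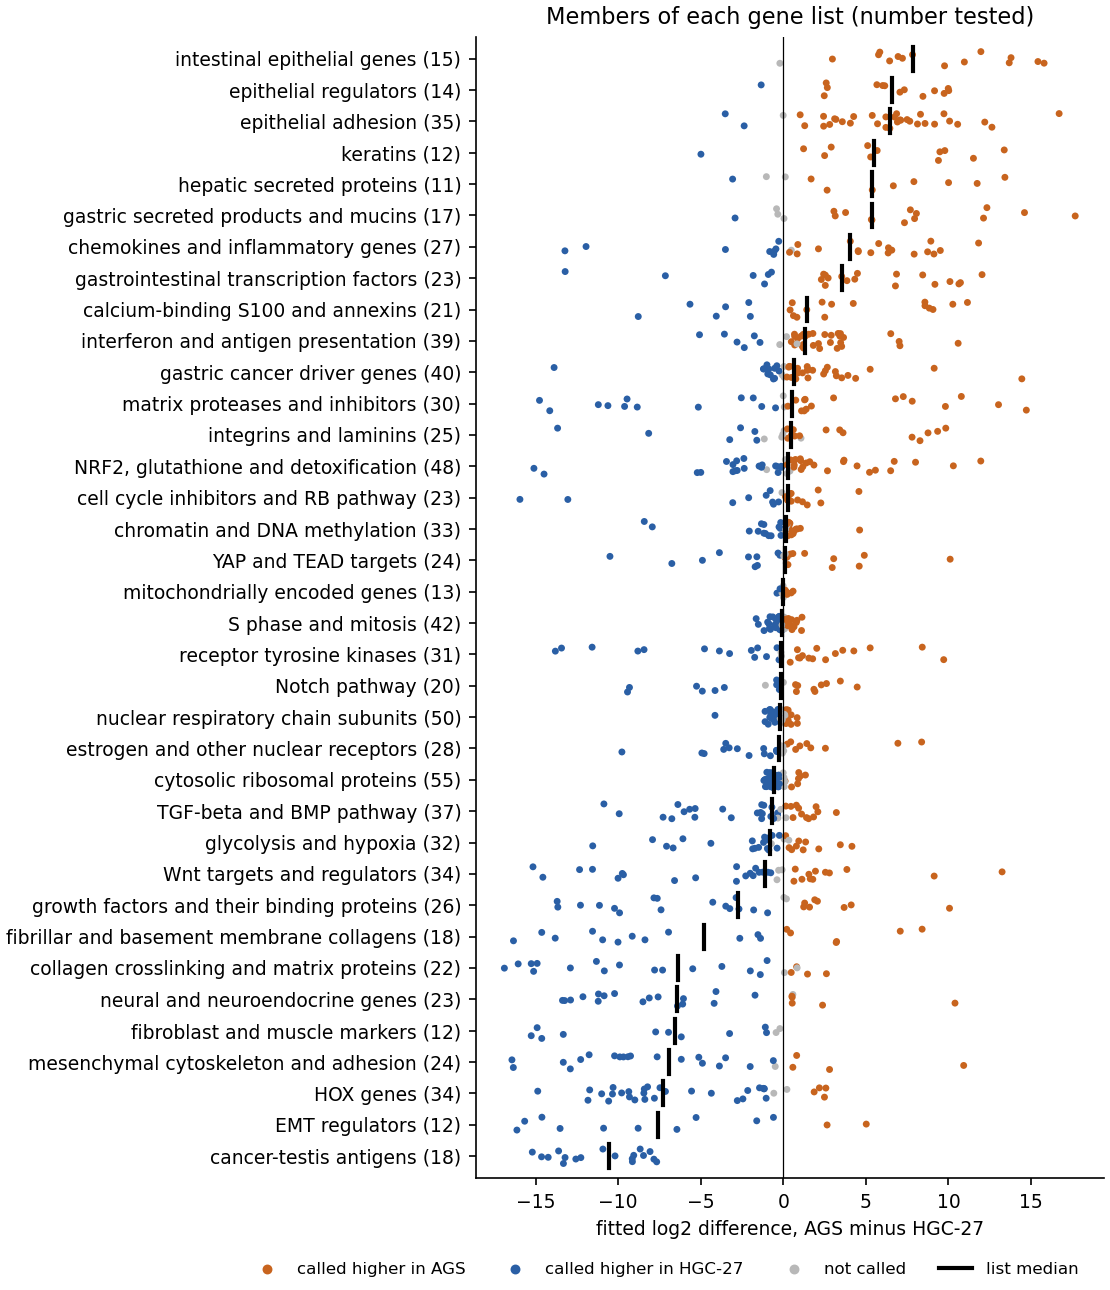
Fitted log2 difference, AGS minus HGC-27 (horizontal), of each tested member of the gene lists with at least 10 tested members (1 list not drawn), 1 point a gene, with the list median as a black bar; the vertical order is by median. Epithelial and gastrointestinal lists lie to the right, matrix, HOX and cancer-testis lists to the left, and the medians of the S phase and mitosis (-0.09) and nuclear respiratory chain (-0.18) lists lie near 0.

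Gastrointestinal transcription factors were higher in AGS. Of 23 tested, 17 were called higher in AGS and 6 in HGC-27. HNF4A, a nuclear receptor of gut and liver epithelium, had 3006 and 2873 counts in the AGS pair against 6 and 4 in the HGC-27 pair, a 579.5-fold difference. CDX2, the intestinal homeobox factor, had 2430 and 2364 against 113 and 102. SOX2, a factor of foregut and stomach, had 504 and 542 against 0 and 0.

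Products of gastric and intestinal cells went with them. Of 17 tested gastric secreted products and mucins, 13 were called higher in AGS and 1, MUC3A, in HGC-27. Of 33 listed intestinal genes, 15 were tested, of which 14 were called higher in AGS and 0 in HGC-27. For the 1 left, CDHR2, the test was not passed (log2 -0.2). CPM of the 15 summed to 1408.3 and 1324.6 in the AGS libraries and 6.4 and 5.5 in those of HGC-27. These genes thus passed the count limit largely through AGS, which bears on the direction of their calls. Cadherin-17, CDH17, had 8182 and 8085 counts in the AGS pair against 0 and 1 in the HGC-27 pair, and the trefoil peptide gene TFF1 had 593 and 506 against 0 and 0. Villin, VIL1, had 6695 and 7771 against 4 and 3. Of 33 listed gastric products, 17 passed the count limit, so many gastric genes were at or near 0 in both lines. CPM of the 17 summed to 1773.1 and 1654.8 in the AGS libraries and 18.4 and 21.1 in those of HGC-27. Most of this came from AGS, which bears on the direction of their calls too. Hepatic genes included fibrinogen: FGB had 538 and 284 counts in the AGS libraries and 0 and 0 in those of HGC-27.

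The label of both lines, gastric cancer cell, was checked against defining markers. EPCAM, KRT8 and KRT18 marked the AGS libraries. In the HGC-27 libraries EPCAM was at 10 and 8 counts and VIM at 39235 and 34138, while KRT8 was still read at 1825 and 1649 counts. Of 16 leukocyte markers 3 passed the count limit, and PTPRC had 3 and 0 counts in the AGS pair against 6 and 22 in the HGC-27 pair. Of 10 endothelial markers 2 passed, and PECAM1 and CDH5 were at 6 counts or fewer in each library. Of 12 tested fibroblast and muscle markers, 10 were called higher in HGC-27, among them THY1, while DES had 115 and 81 counts in the AGS libraries and 106 and 120 in those of HGC-27. LUM, read as a defining fibroblast gene, had 0 and 0 counts in the AGS pair against 5122 and 4728 in the HGC-27 pair. PDGFRB, a receptor of pericytes and fibroblasts, had 8 and 5 against 55 and 72. CPM of the 12 tested fibroblast and muscle markers summed to 39.8 and 40.5 in AGS and 4366.2 and 4605.1 in HGC-27. Most of this came from HGC-27, which bears on the direction of their calls. Whether other cells had a part in these levels was not tested. In bulk RNA, fewer cells of a kind and less RNA per cell cannot be told apart.

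Lists of other lineages differed in direction. Of 30 listed hepatic secreted proteins, 11 were tested, of which 8 were called higher in AGS and 1, C5, in HGC-27. CPM of the 11 summed to 158.8 and 133.8 in the AGS libraries and 12.4 and 12.4 in those of HGC-27. Most of this came from AGS, which bears on the direction of the calls. The coagulation factor gene F5 had 1409 and 1298 counts in the AGS libraries and 0 and 0 in those of HGC-27. Of 23 tested neural genes, 17 were called higher in HGC-27 and 5 in AGS. ELAVL2, a neuronal RNA-binding protein gene, had 0 and 0 counts in the AGS pair against 1270 and 1151 in the HGC-27 pair. MAP2 was on in AGS, with 152 and 186 counts against 0 and 0. Of 39 listed cancer-testis antigens, germ cell genes that tumours can express, 18 passed the count limit, and all 18 were called higher in HGC-27. Their CPM summed to 0.3 and 0.4 in the AGS libraries and 1019.8 and 1028.0 in those of HGC-27. They thus passed the limit through HGC-27, which set the direction of their calls. MAGEA10 had 0 and 0 counts in the AGS libraries and 1716 and 1423 in those of HGC-27, and PRAME had 6 and 1 against 2187 and 1948. MAGEA6 and CTAG2 had over 50% of their sequence shared with another gene, so the split of reads among such copies is uncertain. With genes of shared sequence left out, 9 of these antigens were called.

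HOX genes, which give cells their position along the body axis, were also divided. Of 34 tested, 28 were called higher in HGC-27 and 4 in AGS. HOXA13 had 0 and 0 counts in the AGS pair against 4046 and 3477 in the HGC-27 pair, and HOXD13 had 0 and 0 against 500 and 358. The 4 higher in AGS were neighbours in the HOXB cluster: HOXB3, HOXB4, HOXB5 and HOXB6. HOXB6 had 1006 and 1132 counts in the AGS libraries and 196 and 164 in those of HGC-27.

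Of 28 tested estrogen and other nuclear receptor genes, 9 were called higher in AGS and 14 in HGC-27. ESR1, the main estrogen receptor, had 4 and 5 counts in the AGS pair against 1 and 3 in the HGC-27 pair and was under the count limit. ESR2 had 44 and 73 counts in the AGS libraries and 17 and 19 in those of HGC-27 (log2 1.66 ± 0.41, edgeR adjusted p = 0.00079). The membrane estrogen receptor gene GPER1 had 35 and 28 against 1051 and 894, a 30.6-fold difference in favour of HGC-27. The glucocorticoid receptor gene NR3C1 ran the other way, with 858 and 875 counts against 1 and 4.

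Growth factor receptors were split almost evenly. Of 31 tested receptor tyrosine kinase genes and adaptors, 15 were called higher in AGS and 14 in HGC-27. EGFR had 3407 and 4040 counts in the AGS libraries and 470 and 370 in those of HGC-27, ERBB3 had 4408 and 4051 against 120 and 103, and MST1R, the receptor of macrophage-stimulating protein, had 2523 and 2697 against 2 and 4. The collagen receptor DDR2 had 26 and 25 counts in the AGS pair against 11970 and 11066 in the HGC-27 pair, a 449-fold difference. EPHA3 and ROR2 had 0 counts in the AGS libraries and 1935 and 1657, and 1371 and 1379 in HGC-27.

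Among growth factors and their binding proteins, 16 of 26 tested genes were called higher in HGC-27 and 8 in AGS. PDGFC had 0 and 0 counts in the AGS libraries and 1799 and 1451 in those of HGC-27. TGFA, a ligand of EGFR, had 662 and 757 counts in the AGS pair against 39 and 43 in the HGC-27 pair. In the TGF-beta and BMP pathway 22 of 37 tested genes were called higher in HGC-27 and 12 in AGS. The ligand gene TGFB2 had 6 and 10 counts in the AGS libraries and 827 and 909 in those of HGC-27, while the receptor gene TGFBR2 had 2634 and 2818 against 324 and 268.

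Wnt genes went both ways. Of 34 tested, 12 were called higher in AGS and 19 in HGC-27. LGR5, a receptor for R-spondin and a stem cell marker of the gut, had 5914 and 6177 counts in the AGS pair against 0 and 1 in the HGC-27 pair. The feedback target AXIN2 had 9027 and 9723 counts against 1726 and 1492. The ligand gene WNT5A had 0 and 0 counts in the AGS libraries and 3293 and 2778 in those of HGC-27, and APCDD1, a Wnt inhibitor, had 0 and 0 against 4890 and 4285. LEF1, a transcription factor of the pathway, had 1 and 0 counts in the AGS pair against 2014 and 1766 in the HGC-27 pair. In the Notch pathway 9 of 20 tested genes were called in each direction. The ligand genes differed: JAG1 had 8208 and 9530 counts in AGS against 402 and 397, and JAG2 had 89 and 104 against 3954 and 3459.

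Immune signalling genes were mostly higher in AGS. Of 39 tested interferon and antigen presentation genes, 30 were called higher in AGS and 6 in HGC-27, with a median log2 difference of 1.33. ISG15, a ubiquitin-like interferon product, had 1805 and 1932 counts in the AGS libraries and 191 and 148 in those of HGC-27. IFI44L was an exception, with 56 and 46 against 1751 and 1704. Of 27 tested chemokine and inflammatory genes, 18 were called higher in AGS and 8 in HGC-27. The cytokine gene IL18 had 2063 and 2479 counts against 1 and 0, while CCL2 had 0 and 0 against 517 and 470.

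Of 23 tested genes of cell cycle inhibitors and the RB pathway, 13 were called higher in AGS and 9 in HGC-27. The cell cycle inhibitor gene CDKN1A had 9041 and 9252 counts in the AGS libraries and 358 and 410 in those of HGC-27, and the ubiquitin ligase gene MDM2 had 11319 and 12099 against 1226 and 1145.

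CDKN2A, which encodes the cell cycle inhibitor p16 and the protein ARF, had 0 and 0 counts in the AGS pair against 8611 and 7294 in the HGC-27 pair, at least 5277-fold higher. It lies at chr9:21967753-21995301 on GRCh38. Its neighbour on 1 side, MTAP, had 2740 and 3003 counts in the AGS libraries and 2763 and 2494 in those of HGC-27, a log2 difference of 0.13 ± 0.06. CDKN2B on the other side had 629 and 562 in AGS and 2737 and 2394 in HGC-27. The 0 in AGS was therefore not shared by either neighbour. The cyclin gene CCND2 had 0 and 1 counts in the AGS pair against 5562 and 5058 in the HGC-27 pair.

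Of 40 gastric cancer driver genes, all tested, 25 were called higher in AGS and 12 in HGC-27, and 20 were over 2-fold apart.

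Genes that dividing cells share differed little in size. Of 42 genes of S phase and mitosis, 37 were called but 5 (11.9%) were over 2-fold apart, against 35.7% of all tested genes. MKI67, a marker of cycling cells, had 30283 and 34753 counts in the AGS libraries and 16118 and 13710 in those of HGC-27, and the helicase gene MCM7 had 5355 and 5855 against 17574 and 14634. Of 50 nuclear genes of the respiratory chain, 3 (6.0%) were over 2-fold apart. Of 13 mitochondrially encoded genes, which include the 10 protein-coding or long noncoding genes of highest mean TPM (counts scaled by the deposited gene lengths and to a common total), 0 were over 2-fold apart by glmTreat. By edgeR's quasi-likelihood test 10 of the 13 were called, and the largest difference was 1.50-fold, in MT-ND6. Ribosomal protein genes were called higher in HGC-27 in 41 of 55 cases, with a median log2 difference of -0.55, and such genes have near-identical pseudogenes.

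Metabolic and detoxification genes were divided. Of 32 tested glycolysis and hypoxia genes, 19 were called higher in HGC-27 and 10 in AGS. SLC2A1, the glucose transporter GLUT1, had 20310 and 22199 counts in the AGS pair against 1832 and 2062 in the HGC-27 pair, a 10.9-fold difference. The carbonic anhydrase gene CA12 had 1 and 0 counts in the AGS libraries and 1861 and 1858 in those of HGC-27. Of 48 tested NRF2, glutathione and detoxification genes, 24 were called higher in AGS and 20 in HGC-27. The malic enzyme gene ME1 had 0 and 0 counts in the AGS pair against 3112 and 2663 in the HGC-27 pair, and CYP1B1 had 0 and 0 against 4920 and 3943. GPX2, a glutathione peroxidase of the gut, had 544 and 519 counts in the AGS libraries and 7 and 3 in those of HGC-27.

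The remaining lists showed members at each extreme. Of 21 tested S100 and annexin genes, 15 were called higher in AGS and 6 in HGC-27. S100A6 had 19314 and 20090 counts in the AGS pair against 16 and 16 in the HGC-27 pair, and ANXA5 had 13 and 24 against 8810 and 7689. Of 24 tested YAP and TEAD targets, 11 were called higher in AGS and 10 in HGC-27. CTGF, a matricellular target, had 2363 and 3666 counts in the AGS libraries and 389 and 325 in those of HGC-27. Of 33 tested chromatin genes, 16 were called higher in AGS and 14 in HGC-27. Of these 33, 9 (27.3%) were over 2-fold apart, against 35.7% of all tested genes. The deacetylase gene HDAC9 had 2 and 12 counts in the AGS pair against 2509 and 2368 in the HGC-27 pair.

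The promoters of the on and off genes were read as the 250 bases before the first listed start in RefSeq on GRCh38.p14, for protein-coding genes. A promoter was found for 159 of 221 genes on in AGS (71.9%), 475 of 650 on in HGC-27 (73.1%) and 11062 of 13609 tested (81.3%). As a check of the on and off groups as a whole this is void, since fewer than 80% of their genes had a promoter in the table, and the shares below describe the promoters found.

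An E-box that the ZEB and SNAI repressors can bind was searched as CACCTG on both strands. It was in 56 of 159 promoters of genes on in AGS (35.22%), 70 of 475 on in HGC-27 (14.74%) and 1772 of all 11062 (16.02%). The following 2 promoters of genes higher in AGS are shown because they hold it, with the E-box in capitals. RAB25, a trafficking GTPase gene of epithelia, had 2593 and 2516 counts in the AGS libraries and 2 and 14 in those of HGC-27, and HNF4A is described above. With over 3 counts summed in HGC-27, neither is among the 159.
RAB25, chr1:156060910-156061159, + strand: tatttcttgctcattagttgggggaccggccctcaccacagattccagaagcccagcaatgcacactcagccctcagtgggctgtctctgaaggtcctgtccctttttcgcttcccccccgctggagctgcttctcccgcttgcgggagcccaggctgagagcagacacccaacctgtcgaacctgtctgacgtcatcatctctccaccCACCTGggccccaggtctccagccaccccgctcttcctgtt
HNF4A, chr20:44355449-44355698, + strand: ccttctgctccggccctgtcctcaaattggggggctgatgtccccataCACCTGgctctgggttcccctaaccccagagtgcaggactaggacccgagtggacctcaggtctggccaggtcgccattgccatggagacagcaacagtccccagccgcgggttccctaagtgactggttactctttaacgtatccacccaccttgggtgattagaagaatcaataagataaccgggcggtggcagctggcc

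The share of AGS promoters with the E-box was above that of all promoters both where CpG was sparse and where it was dense. The CpG ratio is the number of CG pairs over that expected from the C and G content. Under a ratio of 0.6 the E-box was in 29 of 90 promoters on in AGS (32.2%) and 501 of all 2405 (20.8%). At a ratio of at least 0.6 it was in 27 of 69 (39.1%) and 1271 of all 8657 (14.7%). These are descriptions of letters, with no test, and no binding was measured.

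The AP-1 letters TGANTCA, which read the same on both strands, were in 22 of 159 promoters of genes on in AGS (13.84%), 22 of 475 on in HGC-27 (4.63%) and 445 of all 11062 (4.02%). These shares depended on CpG. Under a CpG ratio of 0.6 they were 17.8% in AGS, 7.8% in HGC-27 and 9.6% of all promoters. At a ratio of at least 0.6 they were 8.7%, 3.1% and 2.5%. As a ratio to all promoters, the AGS share was thus less raised among CpG-sparse promoters, though not as a difference in percentage points. The AGS share at a CpG ratio of at least 0.6 rests on 6 of 69 promoters. MMP7, encoding the protease matrilysin, had 78 and 116 counts in the AGS pair against 0 and 1 in the HGC-27 pair, so its AGS mean was under the limit of 100 and it is not among the 159. SERPINB2, an inhibitor of plasminogen activators that is among the 159, had 191 and 252 against 0 and 0. Their promoters are shown with the AP-1 letters in capitals.
MMP7, chr11:102530748-102530997, - strand: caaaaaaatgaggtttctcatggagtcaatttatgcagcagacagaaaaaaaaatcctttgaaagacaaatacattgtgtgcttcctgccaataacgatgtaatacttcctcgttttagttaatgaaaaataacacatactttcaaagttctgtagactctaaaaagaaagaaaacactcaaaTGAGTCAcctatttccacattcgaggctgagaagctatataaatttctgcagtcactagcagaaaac
SERPINB2, chr18:63887455-63887704, + strand: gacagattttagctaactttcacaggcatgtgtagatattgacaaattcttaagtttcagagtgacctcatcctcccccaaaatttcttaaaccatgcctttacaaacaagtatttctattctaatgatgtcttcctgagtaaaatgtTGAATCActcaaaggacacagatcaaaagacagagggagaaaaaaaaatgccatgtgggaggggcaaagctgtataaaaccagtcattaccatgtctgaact

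The TEAD letters CATTCC, searched on both strands, were in 13.21% of AGS, 8.84% of HGC-27 and 9.56% of all promoters. The letters AACCNGTT (GRHL) and CAAAGTCCA (HNF4) and the HNF1 motif, also on both strands, were in 1.26%, 1.26% and 0.0% of AGS promoters and in 1.14%, 0.23% and 0.05% of all promoters. MMP7 and SERPINB2 each hold the AP-1 letters without the E-box, and RAB25 and HNF4A the E-box without the AP-1 letters.

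CpG pairs were sparser in the promoters of genes on in AGS. The ratio was at least 0.6 in 69 of 159 promoters on in AGS (43.4%), 322 of 475 on in HGC-27 (67.8%) and 78.3% of all. Its median was 0.482 in the AGS group, 0.738 in the HGC-27 group and 0.848 for genes with at least 100 counts in each line. The next 3 promoters belong to genes with 0 counts in AGS and are shown, with CG in capitals, for their dense CpG. They do not stand for the HGC-27 group, in which a ratio of at least 0.6 was less frequent than among all promoters. The CDKN2A stretch lies just outside the gene coordinates given above, and any starts within the gene were not read. CDKN2A holds 24 CG pairs, EPB41L3 holds 25 and PLOD2 holds 30. Of the promoters shown above, RAB25 and HNF4A hold 8 each, MMP7 holds 3 and SERPINB2 holds 0. All were picked for their letters, so these numbers are not a contrast between the lines. EPB41L3, encoding a membrane skeleton protein, had 8381 and 6983 counts in HGC-27, and PLOD2, a collagen lysyl hydroxylase gene, had 4212 and 4618.
CDKN2A, chr9:21995325-21995574, - strand: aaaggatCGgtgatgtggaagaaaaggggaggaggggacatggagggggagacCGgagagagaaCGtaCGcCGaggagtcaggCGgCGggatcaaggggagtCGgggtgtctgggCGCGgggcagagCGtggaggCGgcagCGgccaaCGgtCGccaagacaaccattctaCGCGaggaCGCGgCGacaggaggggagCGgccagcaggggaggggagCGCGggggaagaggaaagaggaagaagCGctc
EPB41L3, chr18:5628992-5629241, - strand: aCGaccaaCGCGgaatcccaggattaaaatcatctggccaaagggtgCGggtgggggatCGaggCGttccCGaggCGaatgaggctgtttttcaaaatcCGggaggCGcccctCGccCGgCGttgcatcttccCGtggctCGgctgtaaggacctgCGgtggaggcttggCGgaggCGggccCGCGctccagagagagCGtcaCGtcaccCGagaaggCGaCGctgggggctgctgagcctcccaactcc
PLOD2, chr3:146161185-146161434, - strand: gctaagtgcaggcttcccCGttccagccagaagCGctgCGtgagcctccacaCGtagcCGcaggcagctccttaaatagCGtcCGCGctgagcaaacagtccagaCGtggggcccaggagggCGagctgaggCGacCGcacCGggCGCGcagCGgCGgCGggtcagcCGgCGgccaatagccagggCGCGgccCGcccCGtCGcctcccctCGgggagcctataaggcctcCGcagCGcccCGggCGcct

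**Figure D4:**
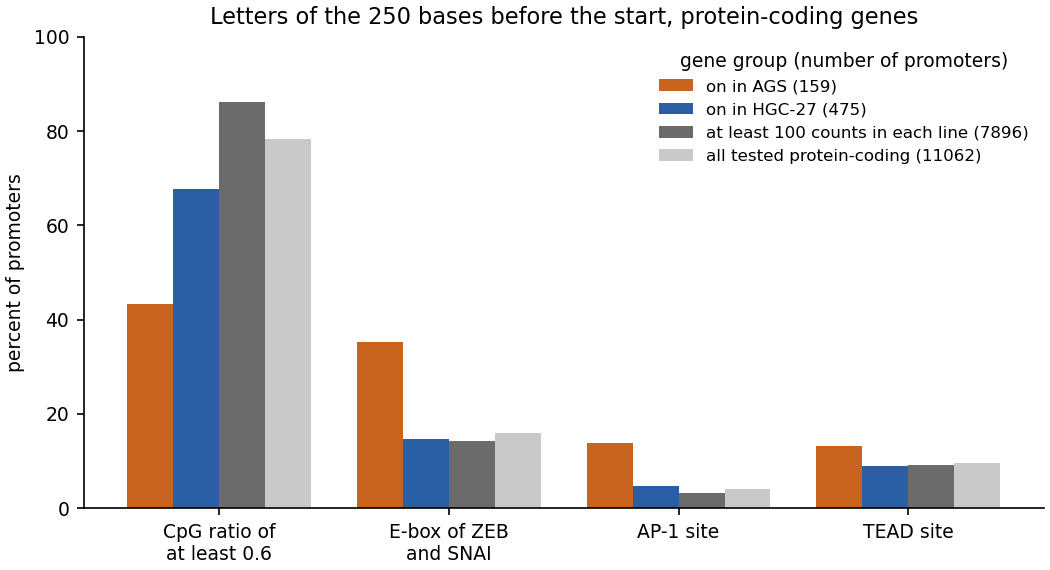
Percent of promoters (vertical) with a CpG ratio of at least 0.6 or with the letters of each motif, for protein-coding genes on in AGS (159), on in HGC-27 (475), with at least 100 counts in each line (7896) and all tested (11062). The E-box stood in 35.22% of AGS promoters against 14.74% of HGC-27 promoters.

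Line differences were also read along the chromosomes, as medians over 9847 genes with at least 100 counts in each line. The median over all of them was 0.07. By chromosome it ran from -0.63 on chromosome 18 to 0.58 on chromosome 21, and on chromosome 20, at 0.58, 86.1% of 267 genes were higher in AGS. Genes on in HGC-27 and off in AGS made up 10.03% of tested genes on the X chromosome and 9.05% on chromosome 4, against 4.41% over all chromosomes.

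The lowest run of 25 neighbouring genes was on chromosome 8, from EIF3H to NSMCE2 (chr8:116642130-125367120), with a median of -3.19. It was -3.25 in the control pair and -3.23 in the estradiol pair. Of 33 protein-coding genes there with at least 100 counts in a line, 29 were called higher in HGC-27, and in 27 the fitted difference was over 4-fold. Over all tested genes 40.7% were called higher in HGC-27. The run was picked as the lowest of 9295, so a majority higher in HGC-27 was set by the choice. Some of the 33 reached 100 counts through HGC-27 alone, such as NOV, with 1 and 0 counts in AGS against 3814 and 3109. NDUFB9, a respiratory chain subunit gene, had 1224 and 1256 counts in the AGS libraries and 23745 and 20209 in those of HGC-27, which made it the largest difference among the 50 nuclear respiratory chain genes. ATAD2, a chromatin ATPase gene, had 4258 and 4533 against 83098 and 71330, and SQLE of sterol synthesis had 2760 and 2624 against 35431 and 30385. EIF3H at the edge, SAMD12, and MAL2, with 0 counts in HGC-27, were the 3 called higher in AGS. For the 1 left, SNTB1, the test was not passed (log2 -0.08 ± 0.07, edgeR adjusted p = 0.288).

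Genes beyond that run went both ways. TRPS1 before it had 0 and 0 counts in the AGS libraries and 12822 and 11473 in those of HGC-27. TRIB1, the next tested gene after it, had 840 and 958 against 3129 and 2544, and LINC00824 further on had 0 and 0 against 2169 and 1844. FAM84B was higher in AGS, with 1891 and 1983 counts against 101 and 98. MYC, the growth-promoting transcription factor gene nearby, had 4391 and 4649 counts in the AGS pair against 7528 and 6258 in the HGC-27 pair, a log2 difference of -0.60 ± 0.05. The long noncoding RNA gene PVT1 next to it had 271 and 323 against 2225 and 1828. Between them and the run, CASC19 had 3186 and 3780 counts in the AGS libraries and 27 and 20 in those of HGC-27. DNA copy number was not measured, and its part in these differences was not tested.

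The next lowest runs had medians of -1.25 on chromosome 18, -1.09 on chromosome 10 and -1.09 on chromosome 9. The highest were on chromosome 19, at 1.80, 1.70 and 1.60, and on chromosome 13, at 1.36. In the run from CADM4 to PPP1R37 on chromosome 19 (chr19:43622368-45305283) all 25 genes were above the median of all genes. It was picked for its high median, so a majority above was set by the choice.

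**Figure D5:**
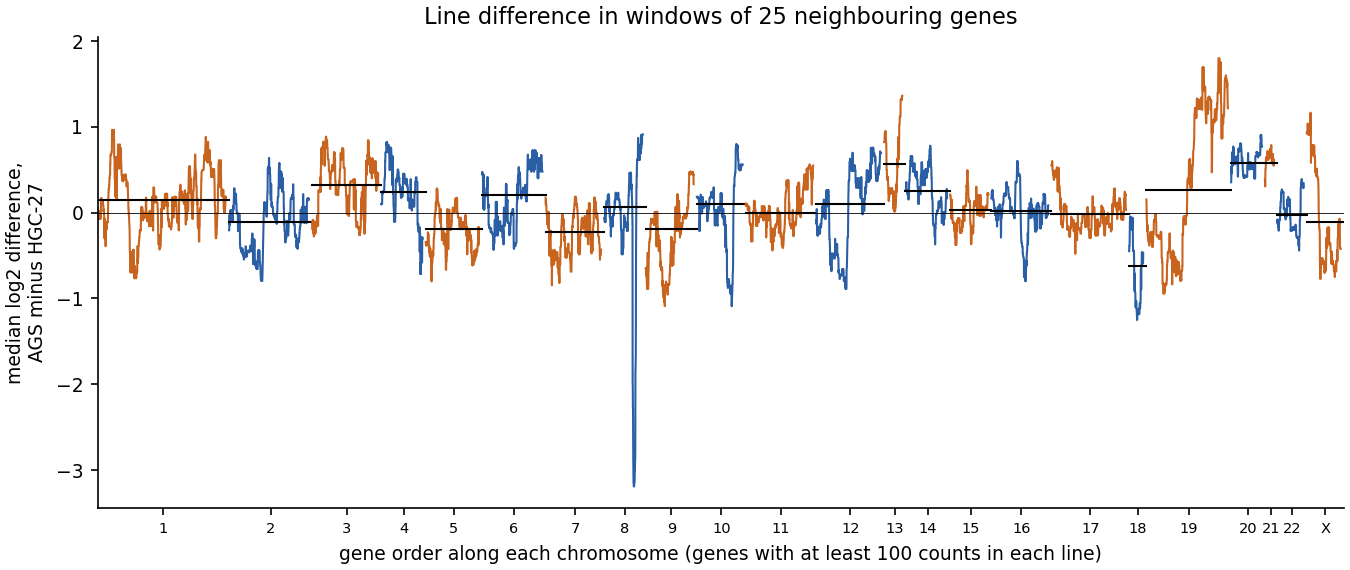
Median log2 difference, AGS minus HGC-27 (vertical), in windows of 25 neighbouring genes, in gene order along each chromosome (horizontal), with the chromosome median as a black bar and colours alternating by chromosome. The dip to -3.19 on chromosome 8 stands apart from the windows of other chromosomes, of which the lowest is at -1.25. The highest window, at 1.80, is on chromosome 19, where others reach 1.70 and 1.60.

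On and off genes of the same direction also stood side by side. Of 11649 protein-coding genes with at least 100 counts in a line, 650 were on in HGC-27 alone and 221 in AGS alone. There were 27 runs of at least 3 neighbouring protein-coding genes, with genes under 100 counts in both lines passed over, of which 24 were on in HGC-27 and 3 in AGS. That more of these runs were on in HGC-27 was set in part by the gene numbers. The longest held 6 genes: HOXA3, HOXA9, HOXA10, HOXA11, HOXA13 and EVX1 (chr7:27106184-27250493), and MAGEA4, GABRE, MAGEA10, GABRA3, MAGEA3 and CSAG1 on the X chromosome. Runs of 5 were HOXD13, HOXD11, HOXD10, HOXD9 and HOXD8 on chromosome 2, and CACNA2D1, PCLO, SEMA3E, SEMA3A and SEMA3D on chromosome 7. The 3 runs on in AGS were the fibrinogen genes FGB, FGA and FGG, the epidermal genes HRNR, FLG and FLG2, and MX2, TMPRSS2 and RIPK4. There was 1 run of 4, MAP9, GUCY1A1, GUCY1B1 and TDO2 on chromosome 4.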

How the data were processed

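RNA of 4 libraries was sequenced: AGS and HGC-27 cells, each as control and with estradiol. The authors used HISAT2 for alignment and featureCounts for counting, per the submitters' processing notes, which give no version. The deposited values are raw counts, not normalized. The notes name the build hg18, but 57475 of 58216 gene IDs found in GENCODE 29 have the same start and end there on GRCh38.

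Groups came from the cell line labels. Genes with a mean of at least 10 counts were fitted in edgeR 4.0.16 (R 4.3.3) with TMM factors and a model of treatment plus line. The quasi-likelihood test and glmTreat at a log2 threshold of 1 were used, with Benjamini-Hochberg adjustment at 0.05. The fit had 1 residual degree of freedom and a median of 22.23 prior ones, so the spread rests largely on what all genes share. Tests of the deposited counts were checked on simulated data for this comparison over 17392 genes: 34 of 49 genes changed 1.5-fold, 45 of 50 changed 2-fold and 50 of 50 changed 4-fold were recovered, with 7 false calls among 17193. glmTreat recovered 42 of the 50 genes changed 4-fold and 50 of 50 changed 16-fold. In the simulation 17193 of the 17392 genes had no line difference, and all genes were given the same spread. In the data 76.6% of tested genes were called, so the rates of recovery and false calls may not hold for them.

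Positions used medians over 25 neighbouring genes. Shared sequence is the share of 31-base words of a gene's longest GENCODE 29 transcript found in another gene. The named genes were the 12 genes furthest apart each way at a mean CPM over 20, then up to 4 called members of each of 39 lists in each direction with a mean CPM of at least 5 in the higher line, a set of always named markers, the 10 genes of highest TPM, the longest runs of on or off genes, and the genes at the count limit. Other list members, neighbours and promoters were picked once their values had been seen. Some genes and a list are not reported here. The rule, the members and the lists were chosen with earlier results of these data known. Alternatives were other scalings, filters, DESeq2 1.42.0, limma-voom 3.58.1, a fit without the block and each library left out. Promoters came from RefSeq and matched 11994 tested genes.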

Additional observations from a re-analysis of the deposited data

How the results depend on the processing

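Calls of genes between AGS and HGC-27 numbered 12134 with DESeq2, 13247 with limma-voom, 13500 with DESeq2's size factors and 13488 with library totals alone. With the mean count limit at 1 there were 14492, and at 50 there were 11103. Without the replicate block, which pairs the control libraries and the estradiol libraries, 13776 genes were called, and the block changed no direction of a call. Leaving out each library in turn, in a fit without the block in which the lone library of a line is assumed to vary like the other line, gave 12497 to 13429 calls. These counts stayed within 1.5 times 13488, and the share of calls higher in AGS lay between 45.4% and 48.0%. Leaving out genes of shared sequence, an alternative chosen after seeing the data, gave 12707 calls. Calls over 2-fold, 6281 in the main fit, numbered 4703 with DESeq2 and 5678 with limma-voom. At a mean count limit of 1 they numbered 6939 of 27217 tested genes, and at 50 they numbered 4502 of 13314. The 35.7% that the lists are read against thus depends on the setting.

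The number of genes on in 1 line and off in the other moved with its limit, from 1042 to 452 at a mean of at least 500 counts. The range of chromosome medians was 1.209 over all 4 libraries and 1.256 from the estradiol libraries alone. Scaling and test settings do not enter the on and off counts. For the 285 named genes, 4229 of the values under the alternatives kept their direction and side of the threshold, 12 no longer passed it (MT-CO2, MT-CO3, MT-ATP8 and HES6), 7 newly passed it (MT-ATP6), and 0 reversed. Of single libraries, leaving out AGS replicate 1 ended the call of MT-CO2 and MT-ATP8, AGS replicate 2 that of MT-CO3 and HES6, HGC-27 replicate 1 that of HES6 and HGC-27 replicate 2 that of MT-CO2. List counts moved by over 1.5 times in 4 cases and stayed within that in 581. The 4 were gastric products (9 called) and leukocyte markers (1) at a limit of 50, cancer-testis antigens (9) without genes of shared sequence, and mitochondrially encoded genes where these were left out. With 2 libraries a line, differences under 1.5-fold are the least certain, and at 3 counts or fewer a gene cannot be told from one that is absent.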
